A study of Mus musculus with 16 samples.

Results

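Linker histones and replacement histone variants were followed by 10 genes, chosen by symbol from the 54658 genes listed in the count tables. The linker histone genes were Hist1h1c, H1f0 and H1fx. The histone H2A variants were H2afx, H2afz, H2afv and H2afy, the genes of the replacement histone H3 were H3f3a and H3f3b, and Hist2h2be was a clustered gene of histone H2B. The cells were C17.2α, a line of neural cells from mouse cerebellum that overexpresses the thyroid hormone receptor TRα1, grown in calf serum stripped with charcoal to deplete thyroid hormone. Exposure lasted 24 h, with no added T3, and was to a strobilurin or to its solvent DMSO alone. The solvent was kept constant, so every library carried DMSO. Picoxystrobin, pyraclostrobin and trifloxystrobin were used at 30, 100, 300 and 1000 nM, with 1 library each, azoxystrobin was used at 100 and 1000 nM, and 2 libraries were DMSO controls. All groups share a single engineered cell line, and no concentration was repeated, so the libraries of a compound differ in concentration. A standard deviation within a compound therefore includes its response to concentration, and p-values measure only the spread between these libraries, which may be technical.

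Total counts ranged from 12292390 to 18188099 over the 15 distinct libraries. Azoxystrobin 100 nM held the same count as the second DMSO library for each gene and was left out, since the labels do not tell which compound this library received. The same counts were kept as the second DMSO library. If they belong to azoxystrobin, each comparison with DMSO rests on the first DMSO library alone. The neural progenitor genes Vim and Nes were present in each library, Pax6 was near 0 and the neuron marker Rbfox3 was at 0. Markers of other cell types (Ptprc, Epcam, Pecam1, Myog and Alb) summed to at most 0.411 CPM. In each library, the change of each gene against DMSO was compared with the GC content of its transcript. The correlation across genes was -0.634, -0.704 and -0.738 for picoxystrobin 30, 100 and 300 nM, 0.202 for picoxystrobin 1000 nM and between -0.39 and -0.0635 in the others. Genes are not independent replicates. Picoxystrobin 1000 nM thus stood apart from the lower concentrations of the same compound, and results that rest on it are given with and without it.

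Core histones wrap DNA into nucleosomes, and linker histones bind where the DNA enters and leaves. Most histone genes lie in clusters and are transcribed mainly during DNA replication. Their mRNAs usually end in a stem-loop, bound by the protein Slbp, in place of a poly(A) tail. Replacement variants are made outside replication as well, mostly from spliced and polyadenylated mRNAs, and are exchanged into chromatin by dedicated chaperones. Among the linker genes, Hist1h1c is a clustered gene, whereas H1f0 lies outside the clusters and is known for its accumulation in cells that stop dividing or differentiate. Strobilurins are fungicides that inhibit mitochondrial respiration. Azoxystrobin and picoxystrobin carry a methoxyacrylate group, pyraclostrobin a methoxycarbamate and trifloxystrobin an oximinoacetate.

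The RefSeq table of GRCm38.p6 gave promoter windows for 8 of the 10 genes. The 250 bases before the RefSeq start of 3 of them are printed because they belong to both kinds of linker gene and to the variant called higher with pyraclostrobin. Capitals mark CCAAT and AAACACA on either strand. AAACACA is the element known from promoters of replication-dependent linker genes. Hist1h1c lies at chr13:23738557-23738806 (plus strand), H1f0 at chr15:79027962-79028211 (plus strand) and H2afv at chr11:6444444-6444693 (minus strand, written in the direction of the gene).
Hist1h1c: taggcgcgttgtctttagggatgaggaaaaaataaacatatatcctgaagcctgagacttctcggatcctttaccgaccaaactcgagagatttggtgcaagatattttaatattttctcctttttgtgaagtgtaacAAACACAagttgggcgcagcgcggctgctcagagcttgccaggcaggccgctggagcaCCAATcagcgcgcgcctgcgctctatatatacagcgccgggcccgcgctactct
H1f0: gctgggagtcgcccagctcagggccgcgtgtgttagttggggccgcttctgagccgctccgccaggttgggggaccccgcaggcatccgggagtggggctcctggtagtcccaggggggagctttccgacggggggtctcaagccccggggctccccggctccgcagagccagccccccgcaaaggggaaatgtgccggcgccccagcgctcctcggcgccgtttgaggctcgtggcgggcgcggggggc
H2afv: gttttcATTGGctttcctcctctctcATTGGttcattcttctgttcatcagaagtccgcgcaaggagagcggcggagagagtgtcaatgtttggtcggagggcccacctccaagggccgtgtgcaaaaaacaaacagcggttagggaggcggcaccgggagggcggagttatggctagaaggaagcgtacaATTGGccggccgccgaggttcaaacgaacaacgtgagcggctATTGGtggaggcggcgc
In Hist1h1c, AAACACA began 112 bases before the start and CCAAT 54 bases before it, both on the strand of the gene. H1f0 held neither in the bases printed, which end at 79028211. In the GENCODE M21 annotation H1f0 starts further downstream, at 79028450, and the bases just before that start were not searched. H2afv held CCAAT 4 times on the strand opposite to the gene, where it reads ATTGG as printed. Over the full windows, which run 50 bases past the start, CCAAT was found in 5 of the 8 member windows and in 37.4% of 32851 windows of the table. AAACACA was found in 2 of 8 and in 7.18% of all windows, and TATAAA in 1 of 8 (H3f3b) and in 13.6%. A match of letters is a description and does not show a site that is used.

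In GENCODE M21, an annotation of GRCm38 (mm10), Hist1h1c lies at chr13:23738808-23740367 (plus strand), H1f0 at chr15:79028450-79030504 (plus strand) and H1fx at chr6:87980421-87981637 (minus strand). H2afx lies at chr9:44334694-44336077 (plus strand), H2afz at chr3:137864487-137866922 (plus strand), H2afv at chr11:6427229-6444443 (minus strand) and H2afy at chr13:56073619-56136361 (minus strand). H3f3a lies at chr1:180800832-180813943 (minus strand), H3f3b at chr11:116021912-116027962 (minus strand) and Hist2h2be at chr3:96221119-96223738 (plus strand). The genes are all annotated as protein coding, and Hist1h1c, H1f0, H1fx, H2afx and Hist2h2be have a single exon. The spliced genes have up to 5 exons in a transcript for H2afz, H2afv and H3f3a, 6 for H3f3b and 9 for H2afy. Levels between genes were compared per kilobase of the longest transcript. In DMSO, H1f0 had the highest level, with a mean of 148.0 CPM per kb (n = 2). H3f3b followed with 76.5, H2afx with 59.5, H2afy with 41.8 and H2afv with 31.2 CPM per kb. H1fx had 21.3, H2afz 11.6, Hist2h2be 9.33, Hist1h1c 8.41 and H3f3a 2.55 CPM per kb. The DMSO ranges of H2afz, Hist2h2be and Hist1h1c lie close together, and with 2 controls their order was not tested. H1f0 made up between 87.7 and 91.0% of the summed CPM of Hist1h1c, H1f0 and H1fx in the 15 libraries. Other clustered linker genes, such as Hist1h1e, were not in this sum. Whether the libraries captured mRNAs without a poly(A) tail as well as those with one was not tested. The share and the order of levels therefore describe counted reads, not the amounts of histone mRNA in the cells. H1f0, H1fx, H2afx, H2afy and H3f3a overlap another annotated gene, and the strand setting of the counting is not given in the sources used here, so reads cannot be assigned between overlapping partners. H2afz and H3f3a have near-identical copies, so their counts are uncertain. The named copy H3f3a-ps1 held 11 to 27 counts per library.

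**Figure D1:**
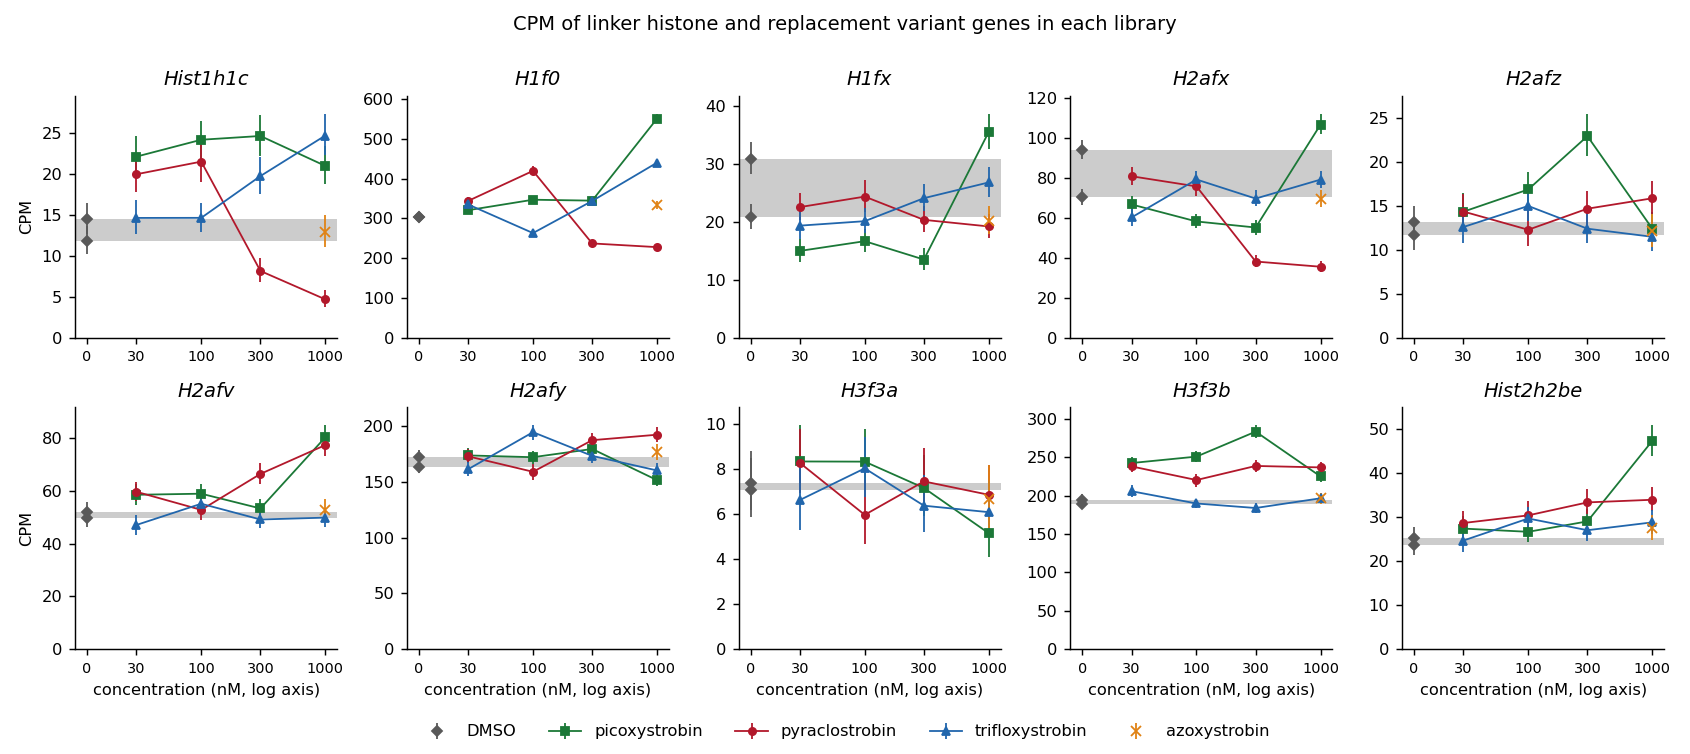
Each panel plots 1 gene, with CPM on a linear vertical axis against the concentration in nM on a log axis. Points are single libraries with 95% Poisson intervals, which cover counting error only, and the grey band spans the 2 DMSO libraries, drawn at 0. Hist1h1c fell to 8.15 and 4.69 CPM at pyraclostrobin 300 and 1000 nM, whereas its picoxystrobin libraries lay between 21.0 and 24.6 CPM.

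The first question was whether linker histone genes differed at the high concentrations of pyraclostrobin, 300 and 1000 nM, from DMSO and from 30 and 100 nM. Hist1h1c, which encodes a main linker histone of dividing cells, was the most variable of the 10 genes, with a 5.26-fold range. The SD of its log2 CPM was 0.663, at percentile 99.9 of the genes tested. It had 11.8 and 14.5 CPM in DMSO and 19.9 and 21.5 CPM at pyraclostrobin 30 and 100 nM. At 300 and 1000 nM it had 8.15 and 4.69 CPM, from 129 and 82 counts. The high libraries were the lowest of the 15 and did not overlap DMSO, while both low libraries lay above DMSO. Against DMSO, Hist1h1c fell by 1.04 on the log2 scale (SE 0.225, edgeR quasi-likelihood test, adjusted p = 0.00783). Against 30 and 100 nM it fell by 1.70 (SE 0.223, edgeR adjusted p = 0.00493). With picoxystrobin 1000 nM left out, these adjusted p-values were 0.00143 and 0.000286. The call against DMSO was lost without the second DMSO library (-0.88, adjusted p = 0.0631) or pyraclostrobin 1000 nM (-0.69, adjusted p = 0.0797). The call against the low concentrations was lost without pyraclostrobin 100 nM (adjusted p = 0.0557) or 1000 nM (adjusted p = 0.0547).

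H1f0, the replacement linker histone, followed a similar order at a far higher level. It had 304 CPM in both DMSO libraries, 344 and 419 CPM at pyraclostrobin 30 and 100 nM, and 237 and 228 CPM at 300 and 1000 nM. The high libraries were again the lowest of the 15. The log2 difference was -0.39 (SE 0.202) against DMSO, with adjusted p = 0.181 and a 95% interval of -0.833 to 0.0547. Against the low concentrations it was -0.72 (SE 0.203), with edgeR adjusted p = 0.0549. Neither passed the threshold of 0.05. Picoxystrobin 1000 nM had the highest H1f0 level of all, 550.4 CPM, and with it left out the differences were -0.39 and -0.72 with adjusted p = 0.0269 and 0.00244.

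H1fx, a linker variant outside the clusters, had 30.9 and 20.8 CPM in DMSO, a gap wider than the counting error. At pyraclostrobin it had 22.5, 24.4, 20.3 and 19.2 CPM from 30 to 1000 nM. Its high libraries lay below both controls by a small margin. The log2 difference against DMSO was -0.39 (SE 0.33, adjusted p = 0.414, 95% interval -1.11 to 0.337). It was -0.07 without the first DMSO library, -0.65 without the second and -0.000712 with an offset for GC content and transcript length. Summed over the 3 genes, linker CPM was 347 and 340 in DMSO (339.7 in the second), 386 and 465 at pyraclostrobin 30 and 100 nM, and 265 and 252 (251.5) at 300 and 1000 nM. The share of Hist1h1c in this sum was 5.16, 4.62, 3.07 and 1.86% from 30 to 1000 nM, against 3.40 and 4.26% in DMSO.

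H2afx encodes the H2A variant that is phosphorylated around DNA breaks. It had 94.1 and 70.5 CPM in DMSO, 80.8 and 75.8 CPM at pyraclostrobin 30 and 100 nM, and 38.1 and 35.5 CPM at 300 and 1000 nM. The high libraries were the lowest of the 15, with the low ones inside the DMSO range. H2afx fell by 1.16 on the log2 scale against DMSO (SE 0.258, edgeR adjusted p = 0.00887). It fell by 1.09 against 30 and 100 nM (SE 0.259, edgeR adjusted p = 0.0295). The call against DMSO was lost without the first DMSO library (-0.94, adjusted p = 0.0791) or pyraclostrobin 1000 nM (-1.11, adjusted p = 0.0877). The call against the low concentrations was lost without any 1 of the 4 pyraclostrobin libraries (adjusted p 0.103 to 0.263). With picoxystrobin 1000 nM left out, the adjusted p-values were 8.71e-05 and 0.000488.

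H2afv, which encodes a form of the H2A.Z variant found at promoters, moved the other way. It had 52.1 and 49.7 CPM in DMSO and 59.7, 52.8, 66.4 and 77.4 CPM at pyraclostrobin 30 to 1000 nM. Both high libraries lay above every DMSO and low library. H2afv rose by 0.50 on the log2 scale against DMSO (SE 0.165, edgeR adjusted p = 0.0462). It was not called with any 1 of the 4 compared libraries left out (adjusted p 0.0675 to 0.276), nor with an offset for GC content and transcript length (0.29, adjusted p = 0.243). With picoxystrobin 1000 nM left out its adjusted p was 0.00135. Against the low concentrations the difference was 0.35 (SE 0.165, adjusted p = 0.22, and 0.0198 with picoxystrobin 1000 nM left out). The other gene of this variant, H2afz, had 11.6 and 13.2 CPM in DMSO and 14.7 and 15.8 CPM at the high concentrations (log2 difference 0.30, SE 0.235, adjusted p = 0.377).

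The remaining genes did not pass the threshold in either comparison. H3f3b, a gene of the replacement histone H3, had 190 (189.7) and 195 CPM in DMSO and 239 and 237 CPM at pyraclostrobin 300 and 1000 nM. Its log2 difference against DMSO was 0.31 (SE 0.109, adjusted p = 0.0593), and without picoxystrobin 1000 nM the adjusted p was 0.0039. With the offset for GC content and transcript length the difference was 0.08 (adjusted p = 0.461). Against 30 and 100 nM it was 0.05 (SE 0.109), and -0.08 with that offset. H3f3a encodes the same protein and had 5.15 to 8.34 CPM over all libraries, under the mean of 10 CPM required for the test. Hist2h2be had 23.7 and 25.2 CPM in DMSO and 33.3 and 34.0 CPM (33.95) at the high concentrations, with a log2 difference of 0.46 (SE 0.185, adjusted p = 0.0894). Its adjusted p was 0.00256 with picoxystrobin 1000 nM left out, and the difference was 0.27 (adjusted p = 0.362) with the offset. H2afy, which encodes macroH2A, known for repressed chromatin, was the least variable, from 152 to 195 CPM in all libraries, and its difference against DMSO was 0.18 (SE 0.112, adjusted p = 0.269).

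Of the 9 genes tested, 3 were called against DMSO, where 25.5% of all 9758 genes were called (11.7% higher and 13.7% lower). Against 30 and 100 nM, 2 were called, both lower, where 7.76% of all genes were called (4.05% higher and 3.71% lower). The median log2 difference of the 9 genes was 0.177 and 0.0526, against 0.0003 and -0.0017 over all genes. Of the 9, 6 and 4 were called with picoxystrobin 1000 nM left out, and 4 and 3 by DESeq2. Over all genes, DESeq2 called 2771 and 1153, and other settings up to 4692 and 2581, against 2484 and 757 in the main fit. The counts of 6 and 4 are not set beside the share of all genes called in that same fit. They are therefore not read as a result about the 9 genes.

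**Figure D2:**
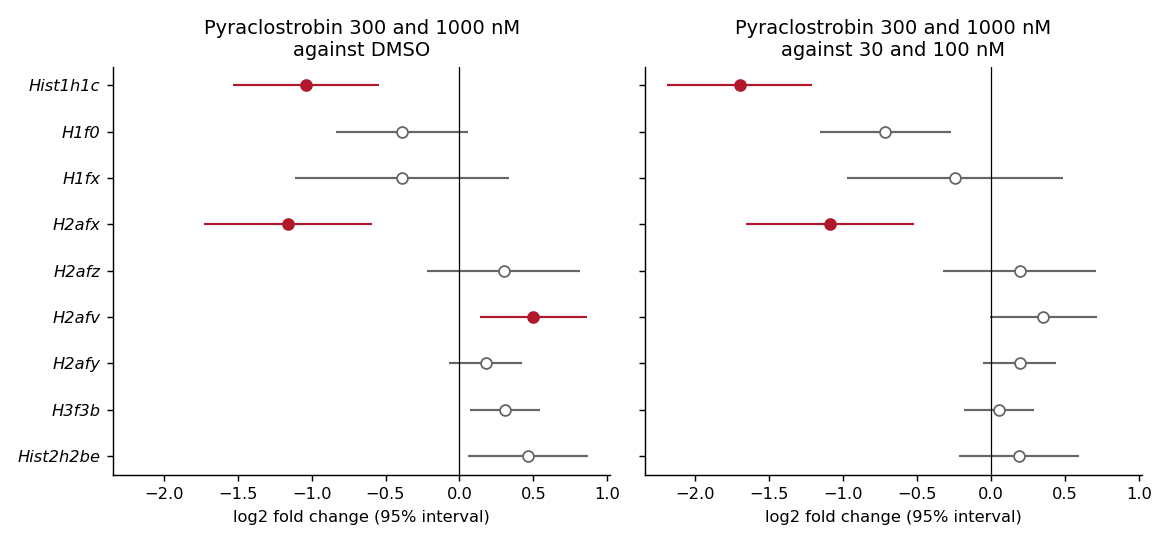
Each point is the log2 fold change of pyraclostrobin 300 and 1000 nM against DMSO (left) or against 30 and 100 nM (right) on a linear axis, with its 95% interval from the edgeR fit over 15 libraries, and filled points passed an adjusted p of 0.05. Hist1h1c (-1.04 and -1.70) and H2afx (-1.16 and -1.09) were called lower in both, and H2afv (0.50) was called higher in the left panel only.

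The other 67 clustered histone genes had low counts, and none reached a mean of 10 CPM. Together they gave 353 to 592 counts per library, or 23.9 to 35.9 CPM, and 39 to 48 of them were detected. The sum was 32.8 and 30.9 CPM in DMSO (30.85), 35.9 and 28.9 CPM (28.85) at pyraclostrobin 30 and 100 nM, and 23.9 and 25.4 CPM at 300 and 1000 nM. The high libraries had the lowest sums of the 15. Hist1h1e and Hist2h3c2, described below, carried a large part of the gap to DMSO. The sums therefore do not show a fall across the whole family. With the looser filter filterByExpr, 17 of these genes could be tested. In both comparisons 2 were called lower and 0 higher, and 11 of 17 had a value below 0. Over all 16559 genes of that fit, 19.0% were called against DMSO and 5.51% against the low concentrations. The median of the 17 was -0.439 against DMSO and -0.316 against the low concentrations. The 2 called genes are named here after their values were seen. Hist1h1e, another clustered linker gene, had 3.91 and 3.47 CPM in DMSO, 4.26 and 3.02 CPM at the low and 1.83 and 1.49 CPM at the high concentrations. Against DMSO it fell by 1.14 on the log2 scale (SE 0.24, edgeR adjusted p = 0.00717). Hist2h3c2, a clustered gene of histone H3, had 3.3 and 3.53 CPM in DMSO and 0.568 and 0.629 CPM at the high concentrations, and its lowest library held 9 counts. It fell by 2.48 against DMSO (SE 0.368, edgeR adjusted p = 0.00135). Its paralogs are near-identical, so this count is uncertain. Without the first DMSO library (adjusted p = 0.0608) or pyraclostrobin 1000 nM (adjusted p = 0.0939) the call of Hist1h1e was lost, and that of Hist2h3c2 held without each of the 4 libraries (adjusted p 0.0135 to 0.0279). Against the low concentrations Hist1h1e was called in 0 of 4 such fits and Hist2h3c2 only without pyraclostrobin 30 nM (adjusted p = 0.0492). Both genes were called in both comparisons with picoxystrobin 1000 nM left out.

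Genes that make or place histones were counted in the same fit. Of 10 tested genes of histone mRNA supply, 5 were called higher against DMSO and 0 lower, where 11.7% of all genes were called higher and 13.7% lower. Slbp, which binds the stem-loop of replication-dependent histone mRNAs, had 55.4 and 46 CPM in DMSO, 52.8 and 48.9 CPM at the low and 92.1 and 127 CPM at the high concentrations. It rose by 1.11 on the log2 scale against DMSO (SE 0.185, edgeR adjusted p = 0.00239) and by 1.11 against the low concentrations (adjusted p = 0.00888). Eri1, an exonuclease that trims these mRNAs, rose by 0.72, Cstf2 by 0.41 and Lsm10 by 0.40 against DMSO. The highest 2 Slbp libraries were thus those in which Hist1h1c was lowest.

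Of 23 tested chaperones and loaders, 4 rose and 2 fell against DMSO, a share near the 25.5% called over all genes (11.7% higher and 13.7% lower). Asf1b, a chaperone of newly made H3 and H4, rose by 1.10 and Nasp, which binds linker histones and H3-H4, by 0.74. Ep400, of a complex that exchanges H2A.Z, fell by 0.63 and Cabin1, a subunit of the H3.3 loading complex HIRA, by 0.58. Of 7 tested high mobility group genes, 2 rose, Hmgn5 by 1.07 and Hmgn1 by 0.38, again a share near that of all genes. Of 3 tested genes among 11 further histone variants, 0 were called by edgeR or by DESeq2 and 0 had an unadjusted p under 0.05. Against DMSO, 3752 of all 9758 genes had an unadjusted p under 0.05 in edgeR. Against 30 and 100 nM, Slbp was the 1 gene of histone mRNA supply called by edgeR, with 8 at an unadjusted p under 0.05, 2 by DESeq2 and 1 to 6 called higher in the other settings. Of the chaperones 0 were called by edgeR, with 6 at an unadjusted p under 0.05 and 1 by DESeq2. Of the high mobility group genes 0 were called by edgeR, with 2 at an unadjusted p under 0.05 and 0 by DESeq2. Of all 9758 genes, 2352 had an unadjusted p under 0.05 in this comparison and DESeq2 called 1153.

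Of 18 S phase and proliferation genes, 11 rose against DMSO and 0 fell, and 5 rose against 30 and 100 nM. Of all genes, 11.7% rose in the first and 4.05% in the second comparison. Ccne2, a cyclin of the entry into S phase, rose by 1.32, Rrm2, a subunit of ribonucleotide reductase, by 1.32, Cdc6, a licensing factor of replication origins, by 1.14, and Gins2 of the replication helicase by 0.86. The summed level of the 18 genes was 2738 and 2296 CPM in DMSO and 3387 and 3797 CPM at the high concentrations. It was 3455 CPM at picoxystrobin 1000 nM and 3183 CPM at trifloxystrobin 100 nM, where Hist1h1c had 21.0 and 14.6 CPM. Mki67 was the largest part of this sum, with 947 and 779 CPM in DMSO and 1230 and 1010 CPM in these libraries. Ccne2, Rrm2, Cdc6 and Gins2 had 27.6, 117, 32.3 and 21.5 CPM at picoxystrobin 1000 nM. They had 44.2, 108, 36.8 and 16.6 CPM at trifloxystrobin 100 nM, and 94.1, 229, 60.5 and 25.3 CPM at pyraclostrobin 1000 nM. With 1 of the 4 compared libraries left out, 2 to 4 of the S phase genes, 1 to 4 of the mRNA supply genes 0 to 2 chaperones and 0 to 1 high mobility group genes were called higher. The medians of the lists against DMSO were 0.658 (S phase), 0.384 (mRNA supply), 0.093 (chaperones) and 0.22 (high mobility group). Whether the share of cells in S phase had a part in these values was not tested, and in bulk RNA fewer cells expressing a gene and less RNA per cell cannot be told apart. Among progenitor markers, Sox9 fell by 0.92 and Nes rose by 0.41 in the same comparison, and the part of a change in cell state in the histone values was not tested.

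**Figure D3:**
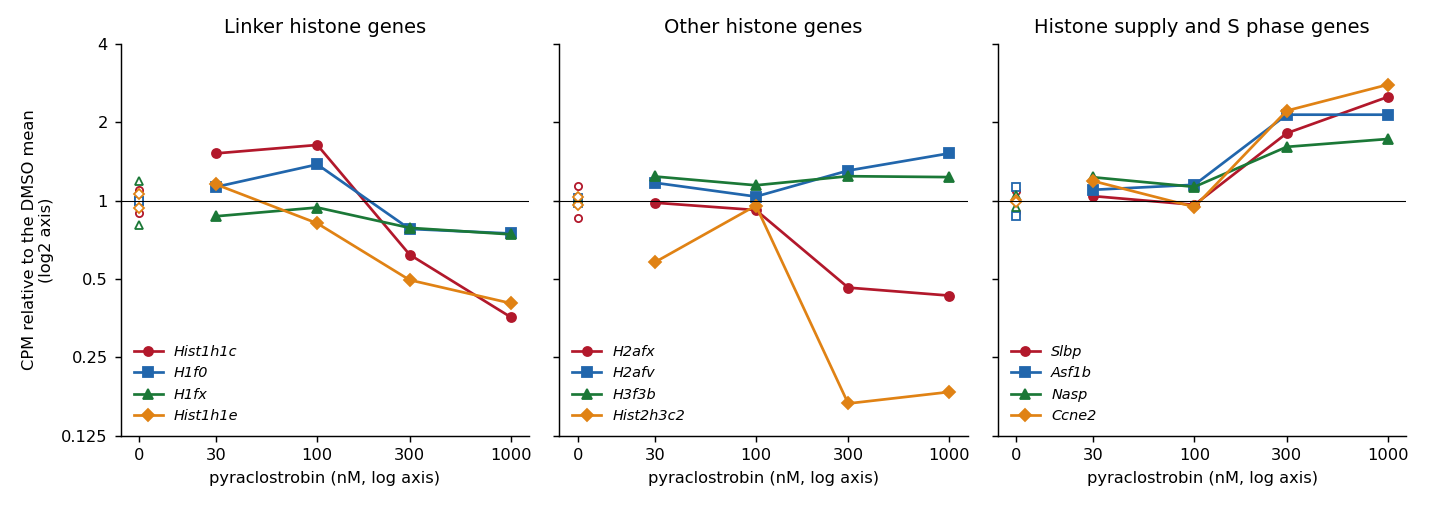
CPM relative to the mean of the 2 DMSO libraries on a log2 axis is plotted against pyraclostrobin in nM on a log axis, with filled points for single treated libraries and open points at 0 for DMSO. Hist1h1c, Hist1h1e, H2afx and Hist2h3c2 lay under 1 at 300 and 1000 nM, where Slbp, Asf1b, Nasp and Ccne2 lay above 1.

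Grouping all 4 concentrations of a compound, as a single level, asks whether a strobilurin shifts these genes over its whole range. With pyraclostrobin, 0 of 9 genes were called by edgeR (2.12% of all genes), with 1 at an unadjusted p under 0.05 and 1 by DESeq2, which was H3f3b in both. Of all 9758 genes, DESeq2 called 921 with pyraclostrobin and 205 with picoxystrobin, and 2515 and 1870 had an unadjusted p under 0.05 in edgeR. The log2 differences of Hist1h1c (0.03, SE 0.426) and H1f0 (0.01, SE 0.258) averaged libraries above DMSO with libraries below it. With picoxystrobin, 0 were called by edgeR (0.041% of all genes), with 2 at an unadjusted p under 0.05 and 1 by DESeq2. H3f3b had 243, 251.1, 284 and 225 CPM at picoxystrobin 30 to 1000 nM, each above both DMSO libraries (log2 difference 0.38, SE 0.0912, edgeR adjusted p = 0.12). Hist1h1c had 22.1, 24.2, 24.6 and 21.0 CPM, each above DMSO (0.81, SE 0.428, adjusted p = 0.304). With trifloxystrobin, 0 were called (0.0% of all genes, with 124 of 9758 at an unadjusted p under 0.05), 0 of the 9 at an unadjusted p under 0.05 and 0 by DESeq2. Hist1h1c had 14.6, 14.6, 19.7 and 24.7 CPM and H1f0 335, 263, 344 and 440 CPM (439.8) at trifloxystrobin 30 to 1000 nM. The highest of both genes stood at 1000 nM, where pyraclostrobin had its lowest. Azoxystrobin 1000 nM, in 1 library, had 12.9 CPM of Hist1h1c, inside the DMSO range, and 334 CPM of H1f0, above it.

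The other genes were not called with trifloxystrobin either. H2afx had 60.2, 79.2, 69.7 and 79.2 CPM at trifloxystrobin 30 to 1000 nM and 69.7 CPM at azoxystrobin 1000 nM, against 94.1 and 70.5 CPM in DMSO. H2afv had 47.1, 55.1, 49.1 and 49.9 CPM (49.85) at trifloxystrobin and 52.8 CPM at azoxystrobin. H3f3b had 206, 190 (189.9), 184 and 197 CPM at trifloxystrobin and 197 CPM at azoxystrobin, where every pyraclostrobin library lay above 220 CPM (lowest 220.5). H1fx had 19.3, 20.1, 24.1 and 26.8 CPM at trifloxystrobin and 20.2 CPM at azoxystrobin. The 95% intervals of the log2 difference between trifloxystrobin and DMSO reached from -0.179 to 0.205 for H3f3b and from -0.422 to 1.40 for Hist1h1c.

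Picoxystrobin showed 2 patterns. At 30, 100 and 300 nM, H1fx had 14.98, 16.7 and 13.5 CPM and H2afx 66.7, 58.2 and 55.2 CPM, each below both DMSO libraries. At 1000 nM, H1fx had 35.5 and H2afx 107 CPM, above both. Transcripts of these genes have the highest GC content of the 10, with 71.3 and 62.3%. H2afz, at 48.4% GC, had 14.3, 16.8 and 22.9 CPM at the 3 lower concentrations and 12.4 CPM at 1000 nM. Against DMSO, 3 genes were called with picoxystrobin 1000 nM left out, H1fx lower (-0.78, SE 0.176, edgeR adjusted p = 0.00842) and H2afz (0.54, adjusted p = 0.0387) and H3f3b (0.43, adjusted p = 0.00424) higher. In this comparison, fits with a library left out called up to 2660 of all genes, against 4 of 9758 in the main fit. Over all 15 libraries none of H1fx, H2afz and H3f3b was called, with differences of -0.36 for H1fx, 0.42 for H2afz and 0.38 for H3f3b. With an offset for GC content and transcript length in the same 15 libraries, these differences were 0.02, 0.28 and 0.19. H1f0 had 320.4, 347, 344 and 550.4 CPM, H2afv 58.5, 58.9, 53.3 and 80.3 CPM, and Hist2h2be 27.4, 26.7, 29.0 and 47.3 CPM from 30 to 1000 nM. Transcripts of H2afv and Hist2h2be have less GC than that of H2afz (47.2 and 45.3%), and their level at 1000 nM was 1.58 and 1.94 times the DMSO mean. The library at 1000 nM was the highest of the 15 for H1f0, H1fx, H2afx, H2afv and Hist2h2be and the lowest for H2afy (152 CPM) and H3f3a (5.15 CPM).

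**Figure D4:**
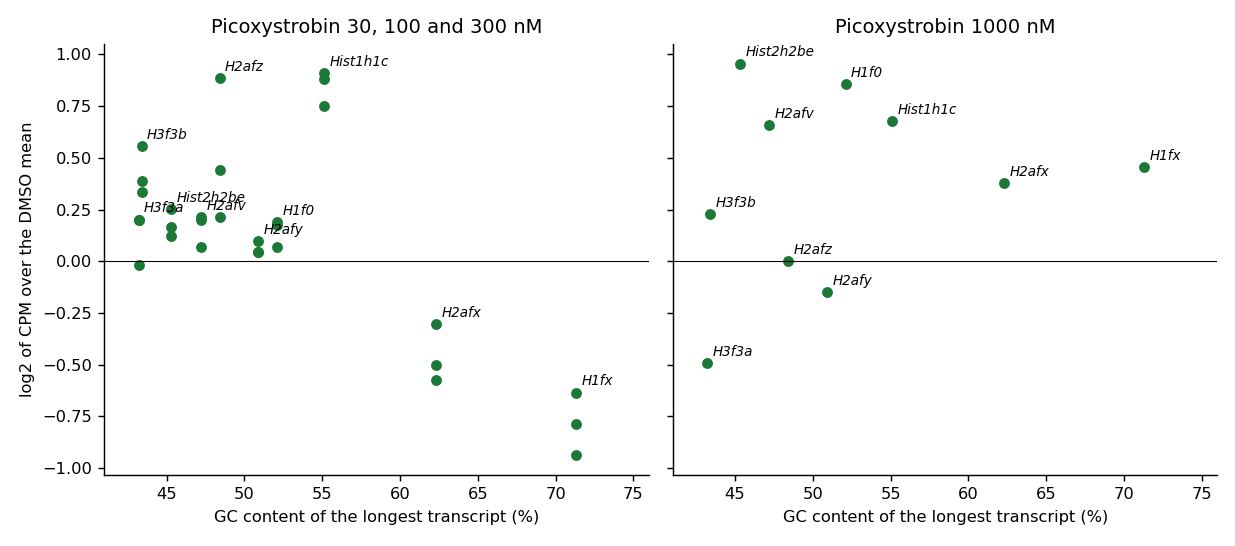
The log2 ratio of CPM to the DMSO mean is plotted against transcript GC content (longest transcript, in percent) for 10 genes at picoxystrobin 30, 100 and 300 nM (left, 3 points a gene) and 1000 nM (right, 1 point a gene). H1fx (71.3% GC) and H2afx (62.3% GC) lie below 0 in the left panel and above 0 in the right one.

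The compounds were compared at matched concentrations in 3 pairs, over 12 libraries with concentration as a block, and p-values were adjusted over all 9752 genes and the 3 pairs together. For pyraclostrobin against trifloxystrobin, 0 of 9 genes were called by edgeR (0.0% of all genes, 1758 of which had an unadjusted p under 0.05), with 2 at an unadjusted p under 0.05 and 0 by DESeq2. The mean log2 difference of Hist1h1c was -0.56 (SE 0.391, 95% interval -1.41 to 0.303). That of H3f3b was 0.27 (SE 0.0839, 95% interval 0.0821 to 0.451, adjusted p = 0.333) and that of H2afv 0.34 (95% interval 0.0767 to 0.594, adjusted p = 0.346). H3f3b was higher with pyraclostrobin at 4 of 4 concentrations. For pyraclostrobin against picoxystrobin, 0 were called (0.0103% of all genes, with 1140 at an unadjusted p under 0.05), with 1 at an unadjusted p under 0.05 and 0 by DESeq2. Hist1h1c was lower with pyraclostrobin at 4 of 4 concentrations (-0.84, 95% interval -1.68 to -0.00142, adjusted p = 0.39). For picoxystrobin against trifloxystrobin, 0 were called (0.0% of all genes, with 842 at an unadjusted p under 0.05), with 2 at an unadjusted p under 0.05 and 1, H3f3b, by DESeq2. H3f3b was higher with picoxystrobin at 4 of 4 concentrations (0.37, 95% interval 0.182 to 0.551, adjusted p = 0.305, and 0.42 with adjusted p = 0.0449 without picoxystrobin 1000 nM). H2afy differed little, with 95% intervals within -0.236 and 0.284 in the 3 pairs. None of these misses shows that the compounds act alike.

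A mean over the 4 concentrations hides a change of direction, so the step from the low to the high concentrations was compared between compounds. Hist1h1c fell by 1.70 with pyraclostrobin, and its step was 0.60 (SE 0.208) with trifloxystrobin and -0.02 (SE 0.202) with picoxystrobin. The step of pyraclostrobin minus that of trifloxystrobin was -2.30 (SE 0.304, edgeR adjusted p = 0.0321, 95% interval -2.97 to -1.63), where 0.184% of all genes were called. This call held in 2 of 8 fits that left out 1 of the libraries compared, those without pyraclostrobin 300 nM or trifloxystrobin 30 nM, and was lost in the other 6 (adjusted p 0.101 to 0.257). DESeq2 called 346 of all 9758 genes and 3 of the 9, which were Hist1h1c, H1f0 and H2afx. The same difference was -1.11 for H1f0 (SE 0.286, adjusted p = 0.101) and -1.18 for H2afx (SE 0.361, adjusted p = 0.156). Both passed with picoxystrobin 1000 nM left out (adjusted p = 0.00576 and 0.00719). Against picoxystrobin, 0 were called by edgeR (0.0102% of all genes). Of all 9758 genes, 993 had an unadjusted p under 0.05 in edgeR and DESeq2 called 58. Of the 9, 3 had an unadjusted p under 0.05 and 3 were called by DESeq2. These were Hist1h1c (-1.67, edgeR adjusted p = 0.125), H1f0 (-1.14, adjusted p = 0.289) and H2afx (-1.46, adjusted p = 0.289). Leaving out picoxystrobin 1000 nM leaves 1 high library of that compound, and then Hist1h1c passed (-1.79, adjusted p = 0.0131) and the other 8 genes did not. H1f0 then had -0.76 (adjusted p = 0.0781) and H2afx -0.91 (adjusted p = 0.0694).

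Across the 15 libraries, the log2 CPM of pairs of genes is given as a description, since the libraries share compounds, depth and base composition. H2afv and Hist2h2be had a Pearson r of 0.833, H2afz and H3f3b 0.788, Hist1h1c and H1f0 0.751, and H1f0 and H2afx 0.701. The most negative values were -0.863 for H1f0 and H2afy and -0.753 for H1fx and H2afz. The gene outside the 10 whose log2 CPM was most like that of Hist1h1c was Cep83os (r = 0.953). It was Cdh13 for H1f0 (0.936), Cacnb3 for H1fx (0.957), Zc3h4 for H2afx (0.954), Selenok for H2afz (0.966) and Fam129a for H2afv (0.947). For H2afy it was Lyar (0.908), for H3f3b Taf7 (0.928) and for Hist2h2be Ier3 (0.909), each over 15 libraries.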

How the data were processed

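RNA-seq was analysed in 16 libraries of C17.2α cells. The authors prepared the libraries with the total RNA SENSE kit (Lexogen) and sequenced them from a single end on a NextSeq500. The submitters' processing notes name Bowtie2 2.3.2.2 and mm10, and reads were counted per gene with htseq-count. The authors deposited raw read counts, as 1 table for each library with no normalization. The annotation and the strand setting are not given in the sources used here.

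Of 120 pairs of libraries, 1 held identical counts, and the others differed in at least 22355 genes, so 15 libraries were kept. Tests on counts were quasi-likelihood tests in edgeR 4.0.16 (R 4.3.3), with TMM factors (0.932 to 1.03), for the 9758 genes with a mean over 10 CPM. Adjusted p-values are Benjamini-Hochberg over all genes tested, and under 0.05 counted as called. Levels were the compound, the compound split into 30 and 100 against 300 and 1000 nM, or, over 12 libraries, the compound with concentration as a block. All levels shared one spread (common dispersion 0.0128), and in a fit that leaves a level with 1 library that library is assumed to vary like the others. Standard errors follow from the fold change and its F statistic, and intervals are 95%. CPM used the TMM factors, and log2 CPM a prior count of 2. Total counts were 12292390 to 18188099 per library, and the plotted Poisson intervals cover counting error only.

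The test was checked on simulated counts. For pyraclostrobin 300 and 1000 nM against DMSO, on 9758 genes, it recovered 41% of genes changed 1.5-fold and 92% of those changed 2-fold, and 5.67% of its calls were unchanged genes. The simulated libraries had no trend with GC content and no response to concentration within a level, so these rates describe simpler data than the real libraries. Alternatives were DESeq2 1.42.0, RLE size factors, filterByExpr, no filter, a robust fit, an offset for GC content and transcript length (natural splines with 4 degrees of freedom, known for 99.66% of the genes), other sets of libraries, no block, a linear trend on log10 concentration, and each library left out in turn. Further choices were added after seeing the data, which are the counts of list genes in these settings and filterByExpr with 1 library left out. The 10 genes and the related lists were chosen with earlier results of these data known. The text names the 10 genes, up to 4 called genes with the largest change from each list, and the gene most like each of the 10 by Pearson r. Promoter sequences are from RefSeq (GRCm38.p6). Further tables used pandas 2.3.3 in Python 3.11.15, and plots matplotlib 3.10.9.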

Additional observations from a re-analysis of the deposited data

Results flagged for a closer look

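In 30 groups of 4 libraries, each a gene in 1 compound, 4 held a library far from the other 3 by Dixon's criterion (0.829 for 4 samples), where chance gives about 1 in 20. H1f0 had 550.4 CPM, H1fx 35.5 CPM and Hist2h2be 47.3 CPM at picoxystrobin 1000 nM, the highest of the 4 picoxystrobin libraries in each case. H3f3b had 220.5 CPM at pyraclostrobin 100 nM, the lowest of its compound. The 4 libraries of a group differ in concentration.

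Hist1h1c differed between pyraclostrobin and trifloxystrobin in the step from low to high concentrations, by -2.30 on the log2 scale (edgeR adjusted p = 0.0321). Its level was lower at both high concentrations of pyraclostrobin than at both low ones, and higher at both high concentrations of trifloxystrobin than at both low ones.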

How the results depend on the processing

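Each comparison is given as the number of the 9 tested genes called (of 10 without a filter and with filterByExpr, which admit H3f3a). Of 88 counts from settings that kept all compared libraries or changed the set as a whole, 60 lay within 1.5 times the main count, and of 66 with 1 library left out, 48 did. Pyraclostrobin 300 and 1000 nM against DMSO gave 3, but 5 without a filter, 6 without picoxystrobin 1000 nM and 7 with azoxystrobin 100 nM added as well. Against 30 and 100 nM it gave 2, but 4 in both of those sets of libraries and 1 with the linear trend. All pyraclostrobin concentrations against DMSO gave 0, but 1 with DESeq2 and without a filter, and 2 in both sets. Picoxystrobin gave 0, but 1 with DESeq2 and without a filter, and 3 in both sets. The matched pairs gave 0, but each 1 without a filter, and picoxystrobin against trifloxystrobin 1 with DESeq2 and without picoxystrobin 1000 nM. The difference in steps from trifloxystrobin gave 1, but 3 with DESeq2, without a filter and in both sets, and 2 with the GC offset. The difference from picoxystrobin gave 0, but 3 with DESeq2, 4 without a filter, and 1 and 2 in the sets without picoxystrobin 1000 nM and with azoxystrobin 100 nM added. The cause of these differences was not tested.

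With 1 library left out, the counts ranged from 0 to 2 (pyraclostrobin high against DMSO), 0 to 1 (against low), 0 to 3 (picoxystrobin), 0 to 1 (picoxystrobin against trifloxystrobin), 0 to 1 (steps against trifloxystrobin) and 0 to 5 (steps against picoxystrobin, the 5 without picoxystrobin 300 nM), and stayed at 0 for the other 4 comparisons. Over all genes, pyraclostrobin high against DMSO gave 2484 calls, 2453 to 4692 under other settings and 564 to 1416 with 1 library left out. Against low it gave 757, 289 to 2581, and 4 to 340. All pyraclostrobin concentrations gave 207, 104 to 1564, and 0 to 940. Picoxystrobin gave 4, 0 to 2909, and 0 to 2660. The step differences gave 18 (18 to 1165, and 1 to 273) and 1 (1 to 204, and 0 to 3214), and the matched pairs 0, 1 and 0, with up to 653, 410 and 576. Between high and low pyraclostrobin, H1fx turned to 0.06 (0.0598) and H3f3b to -0.08 (-0.0818) with the GC offset, and H3f3b ranged from -0.00271 (without pyraclostrobin 100 nM) to 0.11 with 1 library left out. Low counts limit H2afz, H3f3a and the clustered genes. The labels number replicates of DMSO alone, so no replicate numbers pair libraries, and the matched comparisons were paired by concentration.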
